A study of Drosophila melanogaster with 9 samples.

Results

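The muscle contractile and sarcomere genes examined here are 32 genes chosen by name, which encode the actin and myosin filaments of *Drosophila* muscle, the troponin and tropomyosin that gate them, the Z-disc and elastic proteins that hold them in register, the integrins that anchor them and the factor Mef2. All 32 were found among the 15228 genes of the count table, 1 row each. RNA was taken from whole stage 16 embryos, 200 per sample, of 3 genotypes with 3 samples each. Control samples have names that start with w and the genotype WT, *pri* mutants carry *pri S18.1*, and *ken* mutants carry *ken1* over the deficiency *Df(2R)BSC660*, which removes 1 copy of *ken* together with genes beside it. Mutant embryos had been sorted by a GFP balancer, and no treatment is named. The study made these libraries to compare gene expression in embryos that lack Pri peptides, which relay ecdysone signaling in the epidermis, with that in embryos that lack the repressor Ken. Muscle was not the tissue it asked about, so the comparison here shows how far the muscle transcripts of the same embryos moved.

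A sarcomere is the repeating unit of a striated muscle fiber. Myosin thick filaments, anchored at the M-line, slide past actin thin filaments, anchored at the Z-disc. Calcium binds troponin C, which acts through troponin I and troponin T to move tropomyosin and expose actin to myosin. In *Drosophila* most of these proteins come from several genes or several transcripts of a gene, and larval and adult muscles use different sets. By late embryogenesis the body wall muscles of the larva are formed and assemble their sarcomeres.

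The counts assigned to genes ranged from 21048610 to 28859395 per sample (median 23036142), and the muscle genes took 3.37% to 4.42% of them. Levels are given as the authors' normalized counts, that is, counts divided by a size factor of the sample. Since the RNA is that of whole embryos, fewer muscle cells and less RNA per muscle cell cannot be told apart, and each mutant allele cannot be told apart from the rest of its genetic background. *ken*, the gene mutated in the *ken* embryos, stood at 1197, 1184 and 1338 normalized counts there, against 6432 to 7431 in control and 5678 to 8132 in *pri* samples, so the *ken* labels hold. Counts of *pri* itself were left aside. *pri* sample 1 stands apart from the other samples of its genotype, also in digestive enzyme genes of the midgut, and values that it moves are given with and without it.

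The control embryos expressed the larval muscle program at high levels and the genes known from adult flight muscle barely. Per kilobase of annotated exons, the highest member was *Act57B*, a larval muscle actin, at 115221 ± 6112 normalized counts (SD, n = 3). *Mlc2* and *Mlc1*, the myosin light chains, followed at 40328 ± 1730 and 19252 ± 921 per kb. *TpnC73F*, a troponin C of larval muscles, stood at 18415 ± 1330 per kb, next to *wupA* (troponin I) at 17060 ± 513 and *up* (troponin T) at 15417 ± 3496, and these levels lie within about the spread of their neighbors in that order. *Mhc*, the single muscle myosin heavy chain gene, stood at 13473 ± 1440 per kb. At the other end were *Act88F*, the actin of indirect flight muscle, at 4.15 ± 0.505 per kb, and *TpnC4*, the troponin C of flight muscle, at 10.5 ± 5.03 per kb. *Act79B*, an actin of adult muscles, stood at 25.7 ± 3.03 per kb, and the Z-disc gene *Zasp67* at 2.39 ± 1.19. These 4 had a mean below 100 normalized counts over all samples. The other 28 are called abundant below. Exon lengths here are the union of all annotated transcripts, so genes with many alternative exons, such as the titin-like *sls*, come out low per kb.

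**Figure D1:**
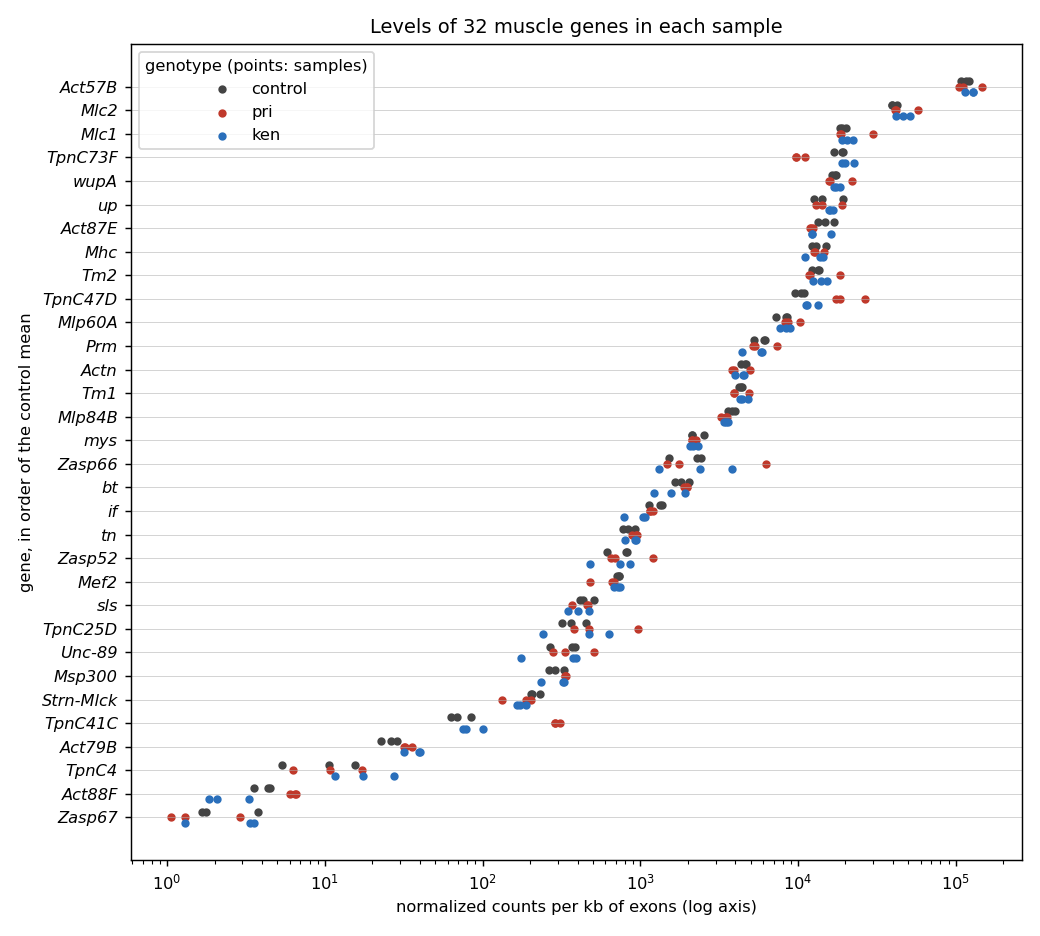
Normalized counts per kb of annotated exons (horizontal log axis) of the 32 muscle genes, ordered by the control mean, with 1 point per sample and 1 color per genotype. The genes run from *Act57B* at 115221 per kb to *Zasp67* at 2.39 per kb in control embryos, and the points of the 3 genotypes lie close together for most genes but not for *TpnC73F*, *TpnC47D* and *TpnC41C*.

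In *pri* mutants 3 of the 32 genes were called, and all 3 encode troponin C. *TpnC41C*, known mainly as an adult muscle troponin C, rose about 4-fold, *TpnC47D*, a troponin C of larval and adult muscles, rose about 2-fold, and *TpnC73F* fell. No gene for actin, myosin, tropomyosin, troponin I, troponin T, an elastic protein, a Z-disc protein or an integrin passed the test (edgeR quasi-likelihood test, called at an adjusted p under 0.05 over all genes). Thus 2 members were called higher and 1 lower (9.38%), by edgeR and likewise by DESeq2. Of all genes, edgeR called 7.51% in this comparison (3.68% higher, 3.83% lower). Among the 11295 genes that pass its expression filter the share was 9.61%, so the number of calls is near that of other expressed genes. The median log2 fold change of the 32 genes was 0.08, against 0.02 for all genes, and it was −0.10 without *pri* sample 1.

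*TpnC41C* (FBgn0013348, 2R, 5065237 to 5070210, dm6) stood at 130, 118 and 159 normalized counts in control samples and at 543, 545 and 583 in *pri* samples. The *pri* samples lay close together, and the lowest of them was far above the highest control sample. The log2 fold change was 2.04 (standard error 0.16, 95% interval 1.68 to 2.40, adjusted p = 0.000149 from edgeR). In *ken* samples it stood at 188, 141 and 148, which overlaps the control range (log2 fold change 0.23, adjusted p = 0.498).

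*TpnC47D* (FBgn0010423, 2R, 11273845 to 11275286) stood at 7623, 8233 and 8663 normalized counts in control samples and at 21030, 13793 and 14637 in *pri* samples. All *pri* samples lay above all control samples, with *pri* sample 1 the highest. The log2 fold change was 1.01 (standard error 0.16, 95% interval 0.66 to 1.36, adjusted p = 0.00514 from edgeR), and 0.80 without *pri* sample 1 (adjusted p = 0.00205). The *ken* samples, at 10532, 8876 and 9065, also lay above the control samples, but by less, and their log2 fold change, 0.21, was not called (95% interval −0.13 to 0.56, adjusted p = 0.536).

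*TpnC73F* (FBgn0010424, 3L, 17046063 to 17048390) stood at 17878, 20398 and 20229 normalized counts in control samples and at 11651, 10323 and 10262 in *pri* samples. Here every *pri* sample was below every control sample, *pri* sample 1 included. The log2 fold change was −0.86 (standard error 0.10, 95% interval −1.08 to −0.64, adjusted p = 0.00129 from edgeR). The *ken* samples stood at 23886, 21148 and 20131, overlapping the control samples (log2 fold change 0.15, 95% interval −0.06 to 0.37, adjusted p = 0.472). These 3 calls in *pri* mutants passed in all 16 alternative fits.

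The other troponin C genes did not pass. *TpnC25D*, on 2L, stood at 455, 397 and 569 normalized counts in control, 1205, 476 and 587 in *pri* and 787, 302 and 589 in *ken* samples. Among the *pri* samples only sample 1 was far from the control range. The log2 fold change of 0.67 in *pri* mutants (adjusted p = 0.363) became 0.17 without it. *ken* sample 1 lay above the control range and *ken* sample 2 below it. *TpnC4* had between 4 and 22 counts in every sample, with no call in any comparison.

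The troponin C genes differed in make-up more than in their summed level per kb. This make-up was computed after the values of the single genes had been seen. Summed per kb, the 5 genes reached 29209 ± 1960 normalized counts in control, 31902 ± 6046 in *pri* and 33061 ± 3089 in *ken* embryos (SD, n = 3 each), and the control and *pri* sums overlapped. The sum was 38853 in *pri* sample 1 and 27862 and 28992 in the other *pri* samples, against 26968 to 30599 in control, whereas the lowest *ken* sum, 31032, lay just above the highest control sum, 30599. *TpnC73F* held 63.0% ± 0.906 of the sum in control and 62.1% ± 1.11 in *ken* embryos but 32.2% ± 3.49 in *pri* embryos. *TpnC47D* held 35.4% ± 0.659, 36.3% ± 0.677 and 64.9% ± 3.08, respectively, so that the gene of second rank in control and *ken* embryos was first in each *pri* sample. The ratio of *TpnC47D* to *TpnC73F* per kb was 0.571, 0.540 and 0.573 in control samples, 2.42, 1.79 and 1.91 in *pri* samples and 0.590, 0.562 and 0.603 in *ken* samples. The *pri* samples did not overlap either other genotype in this ratio. That follows from the 2 genes, neither of which overlapped and which had been chosen for it. The two-sided exact permutation p of 0.1 for each, the smallest that 3 samples against 3 allow, was thus fixed in advance and adds no support. *TpnC41C* remained a minor gene, at 0.951% ± 0.180 of the sum in *pri* and 0.247% ± 0.0347 in control embryos.

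**Figure D2:**
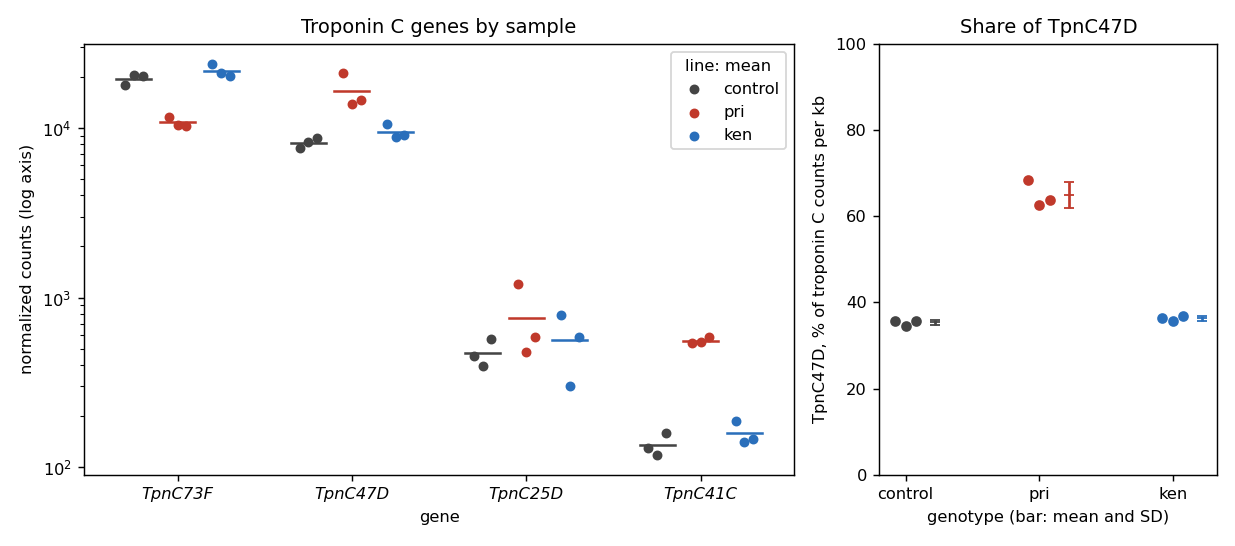
Left, normalized counts (log axis) of 4 troponin C genes in each sample, with a line at the mean of each genotype. Right, the share of *TpnC47D* in the summed troponin C counts per kb, with the mean and SD beside the points. The *pri* samples lie below the others for *TpnC73F*, above them for *TpnC47D* and *TpnC41C*, and at 62.6% to 68.4% in the share of *TpnC47D*, against 34.6% to 36.9% in the other samples.

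Tested directly, the mutants differed from each other in the same genes. *TpnC41C* was higher in *pri* than in *ken* mutants by 1.81 on the log2 scale (95% interval 1.45 to 2.16, adjusted p = 0.000310 from edgeR), *TpnC47D* was higher by 0.80 (0.45 to 1.15, adjusted p = 0.0131), and the log2 fold change of *TpnC73F* was −1.01 (−1.23 to −0.80, adjusted p = 0.000459). The call of *TpnC47D* was lost when the control samples were left out of the fit (adjusted p = 0.0623), without *ken* sample 2 (0.0617) and without *ken* sample 3 (0.0566), where the log2 fold changes were 0.78, 0.72 and 0.77. The adjusted p of this gene ranged from 5.29e-05 to 0.0623 over the 16 alternatives. Of all genes, 8.12% were called between the mutants (4.03% higher, 4.09% lower), and 10.5% of those that pass the expression filter. In all, 3 members were higher and 1 lower in *pri* than in *ken* mutants (12.5%). The fourth was *Act88F*, at 10.3, 9.54 and 10.5 normalized counts in *pri* and 3.29, 5.26 and 2.96 in *ken* samples, with 5.70 to 7.19 in control samples between them. Its log2 fold change of 1.38 (adjusted p = 0.0391) rests on 3 to 10 counts per sample. It passed in 3 of the 15 alternatives that kept the gene, and was called neither by DESeq2 (adjusted p = 0.182) nor with the replicate block (0.0838), over a range of 0.0374 to 0.182. Both mutants were compared with the same control samples.

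*TpnC41C* and *TpnC47D* lie far apart on 2R and *TpnC73F* lies on 3L. Of the 5 expressed genes on each side of each (mean of at least 10 normalized counts), 30 in all, edgeR called 0 in *pri* mutants, while 7 had an unadjusted p under 0.05 and DESeq2 called 4. Of all genes, 22.1% had an unadjusted p under 0.05 in this comparison and DESeq2 called 11.2%. *TpnC47D* sits within a cluster of cuticle protein genes, which are secreted by the epidermis, and 9 of its 10 neighbors had a log2 fold change above 0, as did 51.8% of all genes.

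*Cpr47Ef*, next to *TpnC47D*, stood at 136, 140 and 114 normalized counts in control, 139, 271 and 266 in *pri* and 81.5, 127 and 82.9 in *ken* samples. Among the *pri* samples it was lowest in sample 1, in which *TpnC47D* was highest. Its log2 fold change of 0.79 in *pri* mutants was not called (adjusted p = 0.131 from edgeR, and 0.0605 by DESeq2). Between the mutants it was higher in *pri*, as *TpnC47D* was (log2 fold change 1.22, adjusted p = 0.0296 from edgeR, 0.00101 by DESeq2). Of the 30 neighbors, edgeR called only this 1 between the mutants, beside 8.12% of all genes. *Cpr47Eg*, on the other flank, stood at 5870, 3323 and 6191 in control, 18722, 6337 and 8637 in *pri* and 5829, 1659 and 4197 in *ken* samples. Its *pri* samples were all above control, in the same order as those of *TpnC47D*, but with a wide spread, and it was not called (log2 fold change 1.13, adjusted p = 0.226). *Cpr47Eb*, the third gene on the side of *Cpr47Ef*, stood at 123 to 337 in control, 496 to 7472 in *pri* and 1760 to 11840 in *ken* samples, so it was high in both mutants (3.72 in *pri* and 4.56 in *ken*, adjusted p = 0.0873 and 0.0630 from edgeR, called by DESeq2 at 0.0117 and 0.00148). The link of *TpnC47D* to its neighbors was not tested. None of the 3 troponin C genes that changed overlaps an exon of another annotated gene. They are paralogs, and reads that fit more than 1 of them could not be checked here.

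Among the actins, *Act57B* stood at 200445, 187319 and 208159 normalized counts in control, 252695, 182123 and 190488 in *pri* and 220724, 197885 and 220742 in *ken* samples. The genotypes overlapped, and the 95% interval of its log2 fold change was −0.23 to 0.37 in *pri* mutants and −0.20 to 0.40 in *ken*. *Act87E*, also a larval muscle actin, stood at 26697, 29551 and 33862 in control samples and at 23859, 24615 and 24024 in *pri* samples. Its *pri* samples lay together below the control samples, and the change did not pass (log2 fold change −0.31, 95% interval −0.60 to −0.03, unadjusted p = 0.0351, adjusted p = 0.185 from edgeR). *Act79B*, at 36.5 to 46.3 normalized counts in control and 51.3 to 65.3 in *ken* samples, did not pass in *ken* mutants either (log2 fold change 0.52, adjusted p = 0.187). The actin genes are near-identical in their coding parts, so the split of reads between them is uncertain.

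No thick filament gene was called in either mutant. *Mhc* stood at 136676, 111638 and 117798 normalized counts in control, 133290, 113812 and 115526 in *pri* and 124212, 99832 and 131338 in *ken* samples. The genotypes covered one another, and the 95% interval was −0.31 to 0.28 for *pri* mutants and −0.34 to 0.25 for *ken*. *Prm*, which encodes paramyosin of the thick filament core, had log2 fold changes of 0.03 and −0.12 in *pri* and *ken* mutants, and −0.15 in *pri* without sample 1. In *pri* mutants *Mlc2* stood 0.22 and *Mlc1* 0.21 above control on the log2 scale (adjusted p = 0.394 and 0.509, not called), which became 0.05 and −0.05 without *pri* sample 1. *Mlc1*, for example, stood at 42145 normalized counts in that sample and at 26092 and 26550 in the other *pri* samples, within or just below the control range of 26211 to 28691.

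The partners of troponin C in the thin filament were not called in either mutant. *wupA* stood at 34553, 32606 and 34077 normalized counts in control and at 43698, 31503 and 31249 in *pri* samples. *pri* sample 1 was above and the other *pri* samples below every control sample, and the log2 fold change was 0.07 (95% interval −0.22 to 0.36), or −0.11 without that sample. *up* and the tropomyosin genes *Tm1* and *Tm2* had log2 fold changes of 0.00, −0.02 and 0.10 in *pri* and 0.06, 0.05 and 0.08 in *ken* mutants. Without *pri* sample 1 the *pri* values were −0.18, −0.14 and −0.14. *Tm1* stood at 41716 to 43233 in control, 38712 to 48185 in *pri* and 42157 to 47013 in *ken* samples. *Tm1* overlaps 280 bp of exons of *l(3)neo43* on the other strand, and whether the reads were counted by strand is not given in the sources used here.

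Of the giant proteins, *bt* (projectin) stood at 56896, 46708 and 50579 normalized counts in control, 53228, 55138 and 55672 in *pri* and 43911, 34476 and 53474 in *ken* samples. The groups overlapped in both mutants, and the log2 fold changes were 0.09 and −0.23. *sls*, the titin-like spring of the I-band, had log2 fold changes of −0.06 (0.04 without *pri* sample 1) and −0.15. *Strn-Mlck*, a titin-related gene of the same class, stood at 7627, 6752 and 6600 in control and at 5659, 5381 and 6196 in *ken* samples, all below control, but the log2 fold change of −0.29 was not called (adjusted p = 0.361). *Unc-89*, the obscurin of the M-line, had log2 fold changes of 0.13 (−0.16 without *pri* sample 1) and −0.13, with wide intervals. Its lowest value, 2329 in *ken* sample 2, was less than that of any other sample (3567 to 6772). *Unc-89* and *Mlp60A* are the members nearest to *ken*, 118.1 kb and 197.2 kb away on 2R, and neither was called in *ken* mutants.

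At the Z-disc, *Actn* (alpha-actinin) stood at 24233, 23010 and 24676 normalized counts in control, 25976, 20674 and 20114 in *pri* and 23871, 20984 and 23474 in *ken* samples. The groups overlapped, and the 95% interval was −0.35 to 0.14 for *pri* mutants and −0.32 to 0.17 for *ken*. The *pri* value was −0.11, and −0.24 without *pri* sample 1. The muscle LIM protein genes had log2 fold changes of 0.17 (*Mlp60A*, 0.07 without *pri* sample 1) and −0.14 (*Mlp84B*) in *pri* mutants. *Mlp84B* was among the most precise values of the set, with 95% intervals of −0.31 to 0.02 (*pri*) and −0.28 to 0.04 (*ken*). *tn*, which encodes a TRIM protein that keeps muscle costameres in order, had log2 fold changes of 0.13 and 0.07.

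The smallest unadjusted p of the 32 genes in *ken* mutants was that of 1 integrin gene. *if*, the alpha-PS2 integrin subunit of muscle ends (X, 16752189 to 16783434), stood at 8295, 6830 and 8039 normalized counts in control and at 6423, 4721 and 6252 in *ken* samples. All *ken* samples lay below all control samples. On the log2 scale the change was −0.42 (95% interval −0.70 to −0.13). edgeR did not call it with all samples fitted together (adjusted p = 0.102), whereas DESeq2 called it (−0.41, adjusted p = 0.0349), as did edgeR with a block for the replicate number (−0.42, adjusted p = 0.0267). Over the 16 alternatives its adjusted p ranged from 0.0267 to 0.289. It was −0.28 without *ken* sample 2 (adjusted p = 0.204). In *pri* samples *if* stood at 7242, 6907 and 6943, which overlapped the control samples. *mys*, the beta-PS subunit that pairs with it, stood at 11363, 9532 and 9595 normalized counts in control, 10096, 9525 and 9533 in *pri* and 9200, 9672 and 10411 in *ken* samples. Its groups overlapped, at log2 fold changes of −0.07 and −0.06, and *Msp300*, the nesprin that places muscle nuclei, had 0.19 and 0.00.

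*Mef2*, the transcription factor that drives many of these genes, stood at 6711, 6697 and 6516 normalized counts in control, 4393, 6237 and 6072 in *pri* and 6304, 6675 and 6843 in *ken* samples. The *pri* samples lay below the control samples, 1 of them by far, and the log2 fold change of −0.26 was not called (adjusted p = 0.261) and was −0.11 without *pri* sample 1. In *ken* mutants it was −0.01 (95% interval −0.28 to 0.26).

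In *ken* mutants, then, 0 of the 32 genes were called by edgeR without a replicate term (2 at an unadjusted p under 0.05, *Act79B* and *if*). DESeq2 called *if* lower, and so did edgeR with the replicate block. Of all genes, 5.02% were called in this comparison (2.21% higher, 2.81% lower), 17.7% had an unadjusted p under 0.05, and DESeq2 called 8.06%. The median log2 fold change of the 32 genes was 0.05, against 0.01 for all genes. Without the troponin C genes, neither edgeR nor DESeq2 called any of the 27 other members in *pri* mutants (1, *Act87E*, had an unadjusted p under 0.05), and their median was 0.07. A missed threshold does not show that a level was unaltered. The 95% interval lay wholly within 0.5 of zero on the log2 scale for 16 members in *pri* mutants and 18 in *ken* mutants, which bounds their change, beside 33.2% and 36% of all genes. All genes include many with few counts, so these shares are not matched for level. The groups did not overlap for 9 members in *pri* and 5 in *ken* mutants, beside 31% and 24.9% of all genes.

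**Figure D3:**
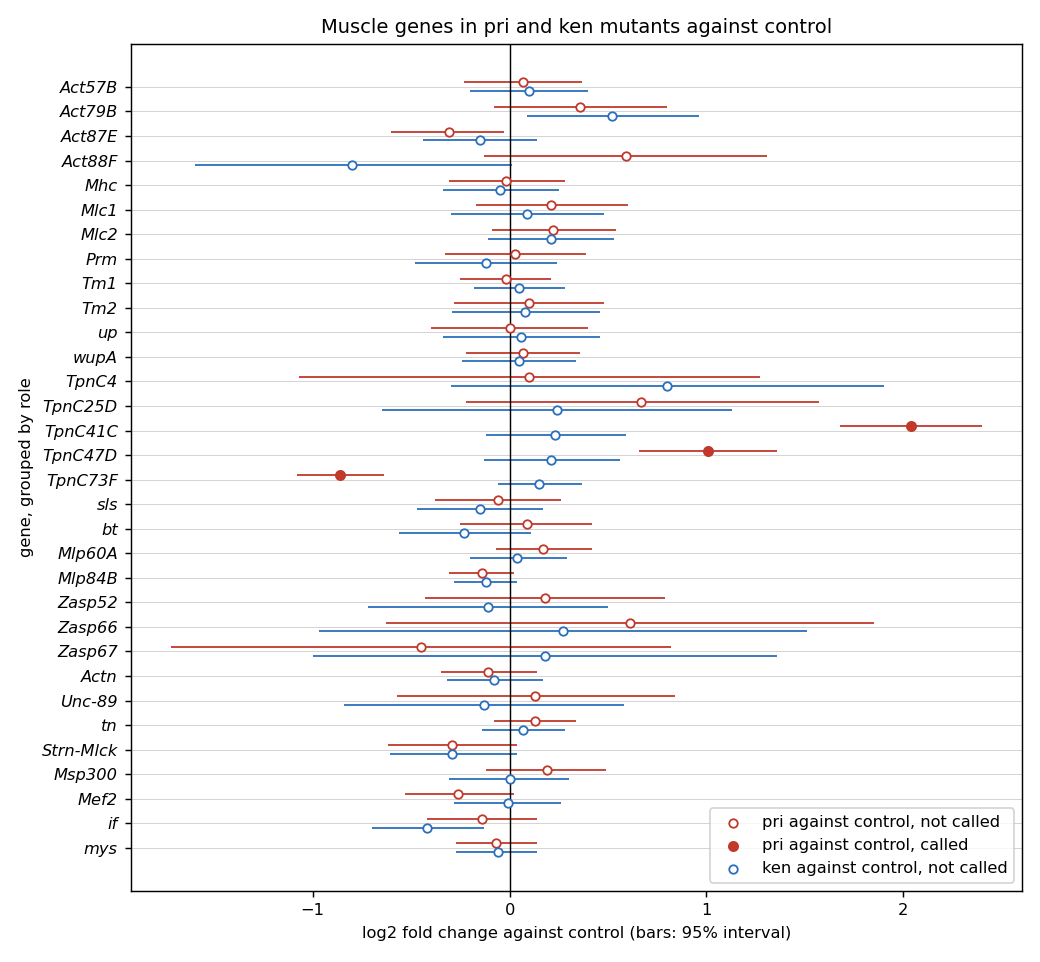
Log2 fold changes of the 32 muscle genes against control (horizontal axis, 0 is no change) in *pri* and *ken* mutants, with 95% intervals from edgeR. Filled points were called at an adjusted p under 0.05. Only *TpnC41C* at 2.04, *TpnC47D* at 1.01 and *TpnC73F* at −0.86, all in *pri* mutants, are filled.

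Samples of 1 genotype differed in part of the muscle set, with *pri* sample 1 far from the others in several genes. The genes named here were chosen after their values were seen. *Zasp66*, a Z-disc protein gene, stood at 17615 normalized counts in *pri* sample 1 and at 4157 and 4968 in the other *pri* samples, with 6423, 4290 and 6787 in control and 10687, 3688 and 6726 in *ken* samples. The mutant genotypes each held values above and below the whole control range, so that the log2 fold change of 0.61 in *pri* mutants (standard error 0.55, adjusted p = 0.551) became −0.36 without *pri* sample 1. *Zasp52*, which encodes a related Z-disc protein, stood at 13149 in that sample against 7142 and 7601 in the other *pri* samples.

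Of the 28 abundant members, 21 lay above the mean of the other *pri* samples in *pri* sample 1, and 8 lay more than 0.5 on the log2 scale from it. In the other 8 samples, set against the rest of their own genotype in the same way, 2 to 22 lay above and 0 to 4 lay more than 0.5 away. The median difference of the 28 genes from the control mean was 0.26 in *pri* sample 1 and −0.10 and −0.09 in the other *pri* samples. In *ken* samples 1, 2 and 3 it was 0.14, −0.11 and 0.07. The excess was not shared by all members. Among the *pri* samples, *Mef2*, *Strn-Mlck* and *sls* were lowest there. *Strn-Mlck* stood at 4365 normalized counts against 6606 and 6223 in the other *pri* samples, and *sls* at 21814 against 27542 and 27251. *Msp300* was level, at 23227, 23739 and 23364.

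**Figure D4:**
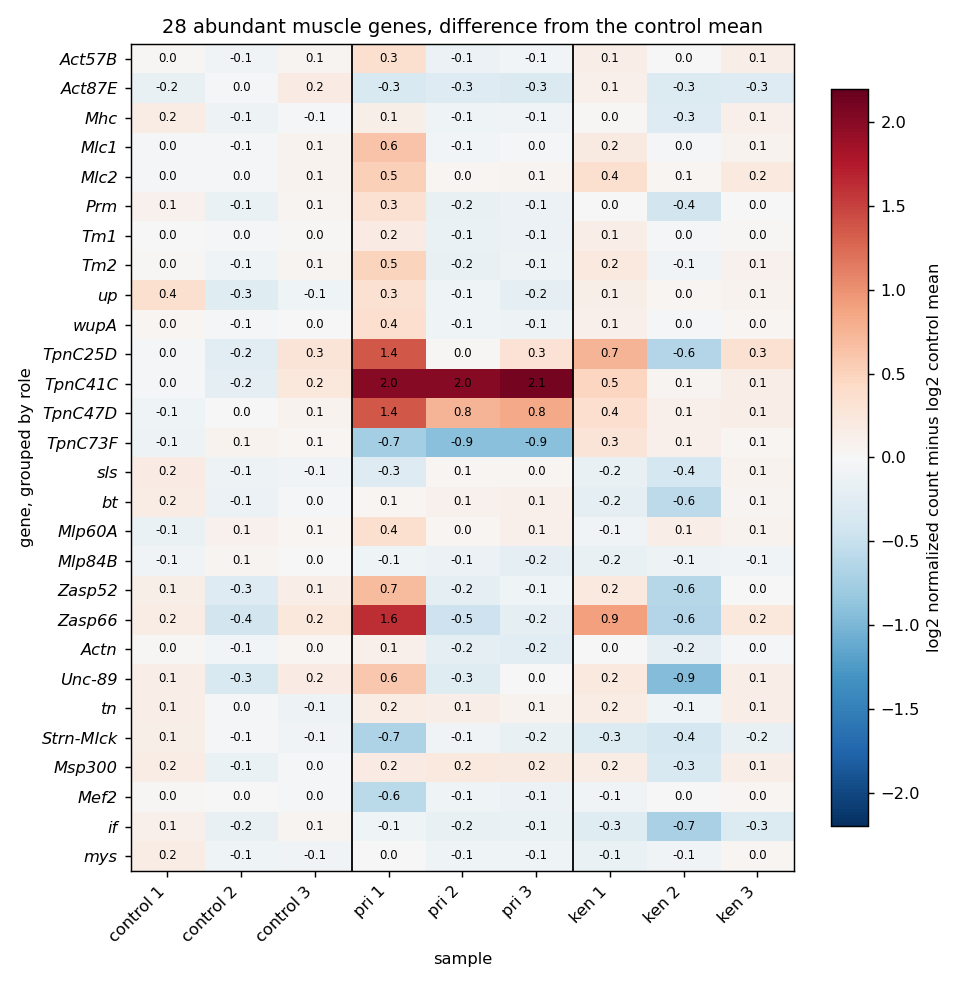
Log2 difference of each sample from the control mean for the 28 abundant muscle genes, grouped by role, with vertical lines between genotypes. The 3 troponin C genes that changed stand out in all *pri* samples. *Zasp66*, *TpnC25D*, *Zasp52*, *Unc-89* and the myosin light chains are highest in *pri* sample 1. In *ken* sample 1, *Zasp66* (0.90) and *TpnC25D* (0.74) are also high. *ken* sample 2 is low in *Unc-89*, *bt* and *if*, and also in *Zasp66* (−0.64), *TpnC25D* (−0.64) and *Zasp52* (−0.63).

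Midgut genes were also highest in *pri* sample 1. The 27 midgut digestive enzyme genes found in the table (of 29 listed) had a median log2 difference from the control mean of 3.68 in *pri* sample 1, −1.31 and −1.01 in the other *pri* samples, 1.34, −0.01 and 0.62 in *ken* samples and 0.72, −0.78 and 0.13 in control samples. Their summed normalized counts ranged from 3081 to 6204 in control, 2892 to 24837 in *pri* and 3235 to 8925 in *ken* samples, with no gene of the list at or near 0 in every sample. Of these genes 0 were called in *pri* mutants by edgeR (8 at an unadjusted p under 0.05, 1 by DESeq2). *Zasp66* was highest in the sample highest in midgut genes within each mutant genotype, but not within control, where sample 3 was highest in *Zasp66* and sample 1 in midgut genes. Each sample was also set against the mean of the other samples of its genotype, and this difference was correlated with exon length. Across the 28 abundant members Spearman's rho was −0.43 in *pri* sample 1 and 0.44 and 0.48 in the other *pri* samples. Over 11251 genes it was −0.19, 0.19 and 0.12. Samples of 1 genotype enter each other's differences, so opposite signs among them are partly built in. Values of that size were also found in other samples, from −0.49 in control sample 3 to 0.64 in control sample 1 and 0.67 in *ken* sample 3. These are correlations across genes of 1 library, given as a description. The part of midgut RNA or of length in these differences was not tested. The troponin C changes kept their direction and call without *pri* sample 1, with log2 fold changes of 2.06 (*TpnC41C*), 0.80 (*TpnC47D*) and −0.92 (*TpnC73F*).

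**Figure D5:**
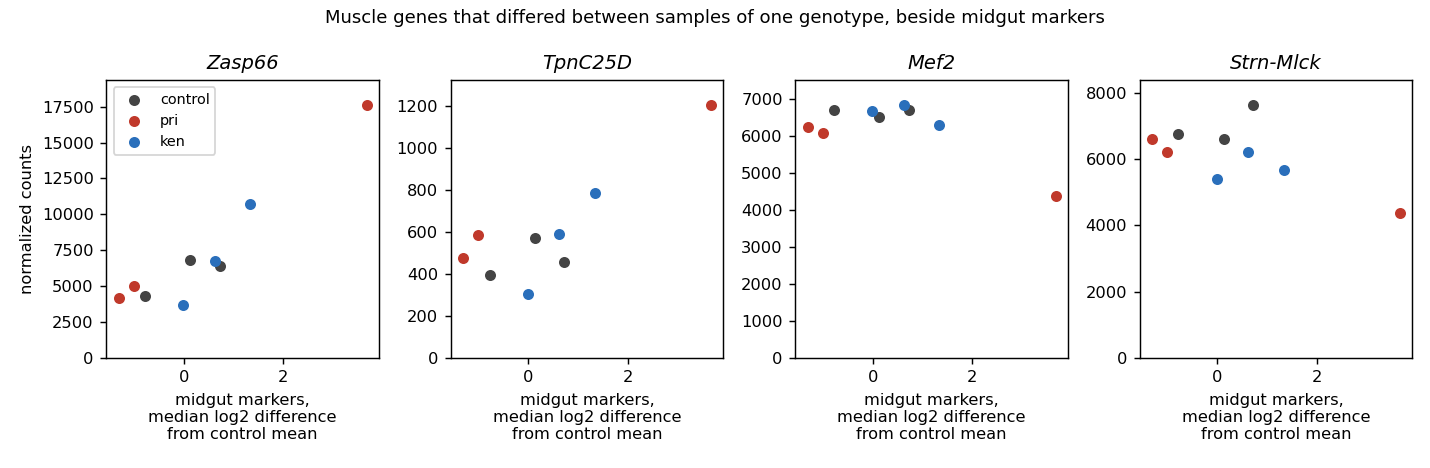
Normalized counts of 4 muscle genes (vertical axes, from 0) against the median log2 difference of the midgut genes from the control mean, with 1 point per sample. *pri* sample 1, at 3.68 on the horizontal axis, is highest for *Zasp66* and *TpnC25D* and lowest for *Mef2* and *Strn-Mlck*.

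Markers of other tissues also differed between the genotypes. In *pri* mutants 6 of 12 epidermal genes, trichome genes among them, were lower and 0 higher. The summed normalized counts of this list were 21062 to 31263 against 33650 to 43395 in control. The paper reports that trichome effector genes need *pri* for their activation. It calls *sha* (log2 fold change −2.15 here) a direct target of Shavenbaby, the factor that Pri peptides activate. The calls on this list therefore cannot tell less epidermis from lower activation of trichome genes. Of 7 tracheal genes 3 were lower in *pri* mutants, beside 7.51% of all genes called. Of 9 hemocyte genes 2 were higher (*NimC1* by 1.02 and *PPO2* by 0.68), and *NimC1* was lower in *ken* mutants (−0.88). *Lsp1gamma*, of 9 fat body genes, was higher in both mutants (1.80 in *pri* and 1.37 in *ken*), and *RpS5b*, of 7 germ line genes, was lower in both (−1.25 and −1.50). Each was the only gene of its list that edgeR called against control. *Lsp1gamma* had only 22.5 to 107 normalized counts. The fat body median was 0.49 in *pri* and 0.82 in *ken*. Summed normalized counts of that list were 67825 to 88326 and 53191 to 71855, against 70719 to 92708 in control. The germ line median was −0.02 in *pri* and 0.42 in *ken*, where DESeq2 called 3 higher and 1 lower. Of the neuronal genes, 0 of 12 were called by edgeR in *pri* mutants (2 at an unadjusted p under 0.05, 1 by DESeq2). In *ken* mutants 0 of 12 epidermal genes were called by edgeR (1 at an unadjusted p under 0.05, 0 by DESeq2), and of 27 midgut genes 1 was higher and 1 lower. Their part in the muscle values was not tested.

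Few genes of the other muscle lists were called, and *GluRIIC* and *GluRIIB*, receptor genes of the neuromuscular junction, were among them. Among 12 genes of excitation and calcium handling, 2 were higher in *pri* and 1 in *ken* mutants by edgeR, beside 7.51% and 5.02% of all genes called, and DESeq2 also called 1 lower in *pri*. *GluRIIC*, an essential subunit of the muscle glutamate receptor, stood at 594, 578 and 559 normalized counts in control, 991, 986 and 855 in *pri* and 803, 1015 and 1047 in *ken* samples. Every mutant sample was above every control sample, by 0.71 in *pri* and 0.72 in *ken* mutants on the log2 scale (adjusted p = 0.00706 and 0.00738 from edgeR), and both passed in all 16 alternatives. The control samples are the same in both values. *GluRIIB*, another subunit, stood at 307, 368 and 333 in control and 558, 448 and 487 in *pri* samples (log2 fold change 0.57, adjusted p = 0.0400), and passed in 8 of 16 alternatives. *GluRIIA* and *GluRIIE*, further subunits, were called in neither mutant. In *ken* mutants both had −0.20 (adjusted p = 0.369 and 0.362 from edgeR). *GluRIIA* stood at 1012, 854 and 966 in control and 1140, 1118 and 1022 in *pri* samples. *GluRIIE* stood at 977, 921 and 861 in control and 1005, 855 and 878 in *pri* samples.

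Of 11 myoblast fusion genes edgeR called 1 in *pri* mutants (9.09%), beside 7.51% of all genes, and 0 in *ken* mutants. It was *lmd*, a zinc finger factor of fusion-competent myoblasts, lower in *pri* at 304, 383 and 546 normalized counts against 722, 783 and 675 in control. The log2 fold change was −0.82 (adjusted p = 0.0297 from edgeR, passed in 10 of 16 alternatives). Of 27 muscle identity factors edgeR called 1 in each mutant (3.7%), beside 7.51% of all genes in *pri* and 5.02% in *ken*. *chn* was higher in *pri* mutants (log2 fold change 0.46, adjusted p = 0.0477, passed in 8 of 16 alternatives), and *Kr* was lower in *ken* mutants (−0.32, adjusted p = 0.0305, passed in 7 of 16). Both factors also act outside muscle. Tested between the mutants, *Kr* was higher in *pri* by 0.37 (adjusted p = 0.0110), as 1 of the 27 called, beside 8.12% of all genes. It stood at 1456, 1497 and 1494 in *pri* and 1170, 1112 and 1163 in *ken* samples, with 1388 to 1503 in control.

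The genes that make up muscle attachment sites and muscle energy supply were not called. Neither edgeR nor DESeq2 called any of 18 attachment genes in either mutant (2 in *pri* and 0 in *ken* had an unadjusted p under 0.05) or any of 15 enzymes of muscle energy metabolism (1 and 0). Of 8 other sarcomere genes 0 were called in either mutant by edgeR (1 in each at an unadjusted p under 0.05, and 1 in each by DESeq2). Between the mutants 2 of these 8 were lower in *pri*, beside 4.09% of all genes. *DAAM*, a formin that assembles thin filaments, differed by −0.69 on the log2 scale (adjusted p = 0.0339), and *l(2)efl*, a small heat shock protein gene, had −0.51 (adjusted p = 0.0407). They passed in 10 and 8 of 16 alternatives. Of the 12 genes of excitation and calcium handling 1 was lower and 1 higher in *pri* than in *ken*, beside 8.12% of all genes called. *Amph*, which shapes the transverse tubules, had −0.42 (adjusted p = 0.0409, passed in 9), and *GluRIIA* 0.41 (adjusted p = 0.0418, passed in 6). Of 4 actin and myosin genes used outside muscle, none was called in either mutant by either tool (1 in *pri* and 0 in *ken* had an unadjusted p under 0.05).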

How the data were processed

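Polyadenylated RNA of 9 samples was sequenced. The authors used STAR 2.6.1d for alignment to dm6 and for counting on a FlyBase annotation, and dropped genes whose total was 1 or 0. Mouse builds stand in the submitters' processing notes, although the gene identifiers are those of *Drosophila*. Positions of 15159 of the 15228 genes come from an Ensembl annotation of that build. The deposited counts are whole and not normalized. The deposited signal values are normalized counts, made by the authors by dividing counts by DESeq2 size factors, which was checked. Their own DESeq2 version was 1.32.0.

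Counts were tested with edgeR 4.0.16 in R 4.3.3, in 1 quasi-likelihood model (all 9 samples, TMM normalization, no filter), adjusted over 15228 genes (Benjamini-Hochberg) and called at 0.05. Standard errors were obtained by dividing the log2 fold change by the root of the F statistic. The method was tested on simulated data. The samples of a genotype are called independent by the study. Deviations of same-numbered samples from their group means were correlated over 11295 genes. The values were 0.175 to 0.467 between control and *ken* and 0.118 to 0.552 between *pri* and *ken*. Between control and *pri* they were 0.433, 0.545 and −0.111 for numbers 1, 2 and 3. Unlike-numbered samples were not set against each other, so these values cannot show whether the numbers pair the samples. The main model has no term for such a pairing, so its results would ignore one. The fit with a term for the replicate number is the replicate block.

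The 16 alternatives were DESeq2 1.42.0, RLE size factors, library totals, filterByExpr, a fit without the third genotype, a replicate block, a robust spread and leaving out each of the 9 samples. Leaving out *pri* sample 1 and *ken* sample 1 together was chosen after seeing the data. The members and all gene lists were chosen with earlier results of these data known. Named were members called in any comparison, the most abundant of each role, and at most 4 genes of each other list by adjusted p. Other genes given by sample, such as *Act87E*, *TpnC25D*, *if* and the neighbors of *TpnC47D*, were not fixed by these rules. They are to be read as chosen with their values known, also where the text does not say so.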

Additional observations from a re-analysis of the deposited data

Results flagged for a closer look

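The effects of the mutants differed from each other, by the direct test of *pri* against *ken* embryos, in 4 of the 32 muscle genes. In this comparison 8.12% of all genes were called. The log2 fold changes between the mutants were 1.81 for *TpnC41C*, 0.80 for *TpnC47D*, −1.01 for *TpnC73F* and 1.38 for *Act88F*. The first 3 were called in *pri* and not in *ken* mutants against control, and *Act88F*, with at most 10 counts per sample, was called in neither. Between the mutants the call of *Act88F* passed in 3 of the 15 alternatives that kept it, and not in DESeq2 (adjusted p = 0.182). That of *TpnC47D* passed in 13 of 16.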

How the results depend on the processing

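The counts of called genes in *pri* mutants and the calls there of *TpnC41C*, *TpnC47D* and *TpnC73F* held in all 16 alternatives. In *ken* mutants the count of lower genes went from 0 to 1, *if*, with DESeq2 and with the replicate block. Beside this the replicate block ended the call of *Act88F* between the mutants (adjusted p = 0.0838) and changed no other call of the 32 genes. Between the mutants the count of higher genes fell from 3 to 1 without *ken* sample 3, and likewise when control samples were not fitted. The median log2 fold change in *pri* mutants was −0.10 without *pri* sample 1, and again −0.10 when *ken* sample 1 was also left out. Leaving out single samples, it ranged from −0.10 to 0.14 in *pri*, from −0.04 to 0.10 in *ken* mutants and from −0.07 to 0.09 between them. Leaving out single samples gave 2 higher and 1 lower gene for *pri*, 0 and 0 for *ken*, and 1 to 2 higher and 1 lower between them.

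Reads shared between actin or troponin C paralogs were not checked. Of the members with few counts, *Act88F*, *TpnC4* and *Zasp67* have wide intervals, and a difference there was not detectable at this depth unless large. The interval of *Act79B* was narrower (standard error 0.19 in *pri* mutants). Some abundant members also had wide intervals, such as *Zasp66* (0.55) and *TpnC25D* (0.40). Genotype and genetic background cannot be told apart.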
